A study of Mus musculus with 6 samples.

Results

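The mitochondrial ribosomal proteins were taken as every gene of the deposited table whose symbol is Mrpl or Mrps followed by a digit, provided its value was at least 1 in 3 or more of the 6 libraries. There were 76 such genes among the 12907 genes tested and the 23404 genes read, 47 with a large subunit (Mrpl) symbol and 29 with a small subunit (Mrps) symbol. All 76 genes found by symbol passed the filter. The lowest single value of any of them was 16.5, for Mrpl36, so no member lay near the minimum of 1.

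The mitochondrial ribosome is built from a large and a small subunit and translates the few messenger RNAs encoded by mitochondrial DNA, all of which specify subunits of the respiratory chain and of ATP synthase. Its ribosomal RNAs are made inside the organelle, whereas its proteins are encoded in the nucleus, made in the cytosol and imported. Some of these proteins descend from bacterial ribosomal proteins and others were added in the mitochondrial lineage. Cardiomyocytes, the contracting cells of the heart, are packed with mitochondria.

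The study sorted C57BL/6J mouse cells labelled as cardiomyocytes into a gate of high FITC fluorescence and dim forward scatter (FITChigh/FSCdim, here FITChigh) and a gate of dim FITC fluorescence and high forward scatter (FITCdim/FSChigh, here FITCdim). Forward scatter is an optical reading related to cell size. Each gate has 3 libraries of polyadenylated RNA, which the series text calls biological replicates, and the comparison asks how the transcriptomes of both gates differ. No genotype beyond the strain, no treatment, age, sex, source of the FITC signal or pooling of animals is given in the labels, so the p-values reflect library-to-library spread and nothing beyond it.

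Values are read counts that the authors adjusted to a common library size, and they summed to 2333473 to 2443707 per library in FITChigh and 2030583 to 2112872 in FITCdim. The reads behind them numbered 1589825 to 3345996 per library. Cardiomyocyte markers were abundant in all 6 libraries, with summed levels of 457407 to 496602 in FITChigh and 299925 to 353525 in FITCdim. Of the 20 markers, 5 passed the test as higher in FITChigh, against 2.51% of all genes tested. Among those that passed, Cox6a2 and Cox7a1 are also subunits of oxidative phosphorylation. Myh6, the most abundant marker, had means of 159480 in FITChigh and 96706 in FITCdim and did not pass. Of the endothelial markers 11 of 12 were lower in FITChigh, summed level 4167 to 4517 against 8529 to 10196. Most of this sum in FITChigh was Cd36, the marker that did not pass, with means of 3430 in FITChigh and 3899 in FITCdim. The log2 fold changes of the endothelial markers had a median of -2.66. All 9 tested fibroblast markers were lower in FITChigh (115 to 144 against 622 to 1133), as were all 9 tested immune markers (84.6 to 116 against 424 to 965). So were 6 of 8 mural markers (1383 to 1836 against 1880 to 2475) and all 6 atrial markers (202 to 448 against 1170 to 2481). The defining fibroblast gene Tcf21 was too low to be tested, at 0 in each FITChigh library and 1.18, 0.0593 and 2.22 in FITCdim. Most of the mural sum in FITChigh was Abcc9, which did not pass, with means of 1228 in FITChigh and 1148 in FITCdim. Endothelial, fibroblast, immune, mural and atrial marker RNA thus moved with the gate, and its part in the results on the mitochondrial ribosome was not tested. In bulk RNA, fewer cells of a type and less RNA per cell cannot be told apart.

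Transcripts of the mitochondrial ribosomal proteins tended to higher values in FITChigh on the authors' scale. Of the 76 genes, 11 rose and 65 did not pass the test (limma-trend on log2(value + 1), Benjamini-Hochberg adjusted p under 0.05 over all 12907 genes), which is 14.5% of the members against 2.51% of all genes tested that were higher. None fell by limma-trend, by limma-voom or at an unadjusted p under 0.05, against 13.5% of all genes tested that were lower by limma-trend, and 28 members were higher at an unadjusted p under 0.05. Of all genes tested, 8.72% were higher and 19% lower at that unadjusted threshold. The median log2 fold change of the 76 members was 0.38, with quartiles of 0.24 and 0.49, beside -0.01 over all genes tested. In 74 of them the log2 fold change was positive, and in 27 (35.5%) every FITChigh library lay above every FITCdim library, a pattern seen in 11.4% of all genes tested. The opposite pattern, every FITChigh library below every FITCdim library, was seen in 0 members and in 20.2% of all genes tested. These counts depend on the scale and on single libraries. With every library set to the same total, 0 of 76 genes passed, beside 41 of all 12907 genes tested that were higher. There 39 large and 23 small subunit genes had positive log2 fold changes. The medians were 0.16 for large and 0.21 for small subunit genes, while all genes tested had a median of -0.20. Relative to the summed cardiomyocyte markers 0 passed, beside 8 of all genes tested that were higher, and both medians were negative. Without a mean-variance trend in the fit 0 passed as well, beside 69 of all genes tested that were higher. The fit used throughout gave 324, so higher calls became fewer over all genes as well as among the members. Leaving out FITChigh replicate 1, 2 or 3 gave 1, 2 and 21 members higher, beside 67 of 12812, 185 of 12719 and 341 of 12781 genes tested. Leaving out FITCdim replicate 1, 2 or 3 gave 3, 15 and 5 members, beside 148 of 12372, 324 of 12388 and 285 of 12375 genes tested. Of the 11 genes that rose, Mrps30 alone kept its call without FITChigh replicate 1, Mrpl12 and Mrps15 without FITChigh replicate 2, and Mrpl28 and Mrps30 without FITCdim replicate 1. Mrpl12, Mrps12, Mrps15, Mrps23 and Mrps30 kept it without FITCdim replicate 3, all but Mrpl43 without FITChigh replicate 3 and all but Mrps26 without FITCdim replicate 2.

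**Figure D1:**
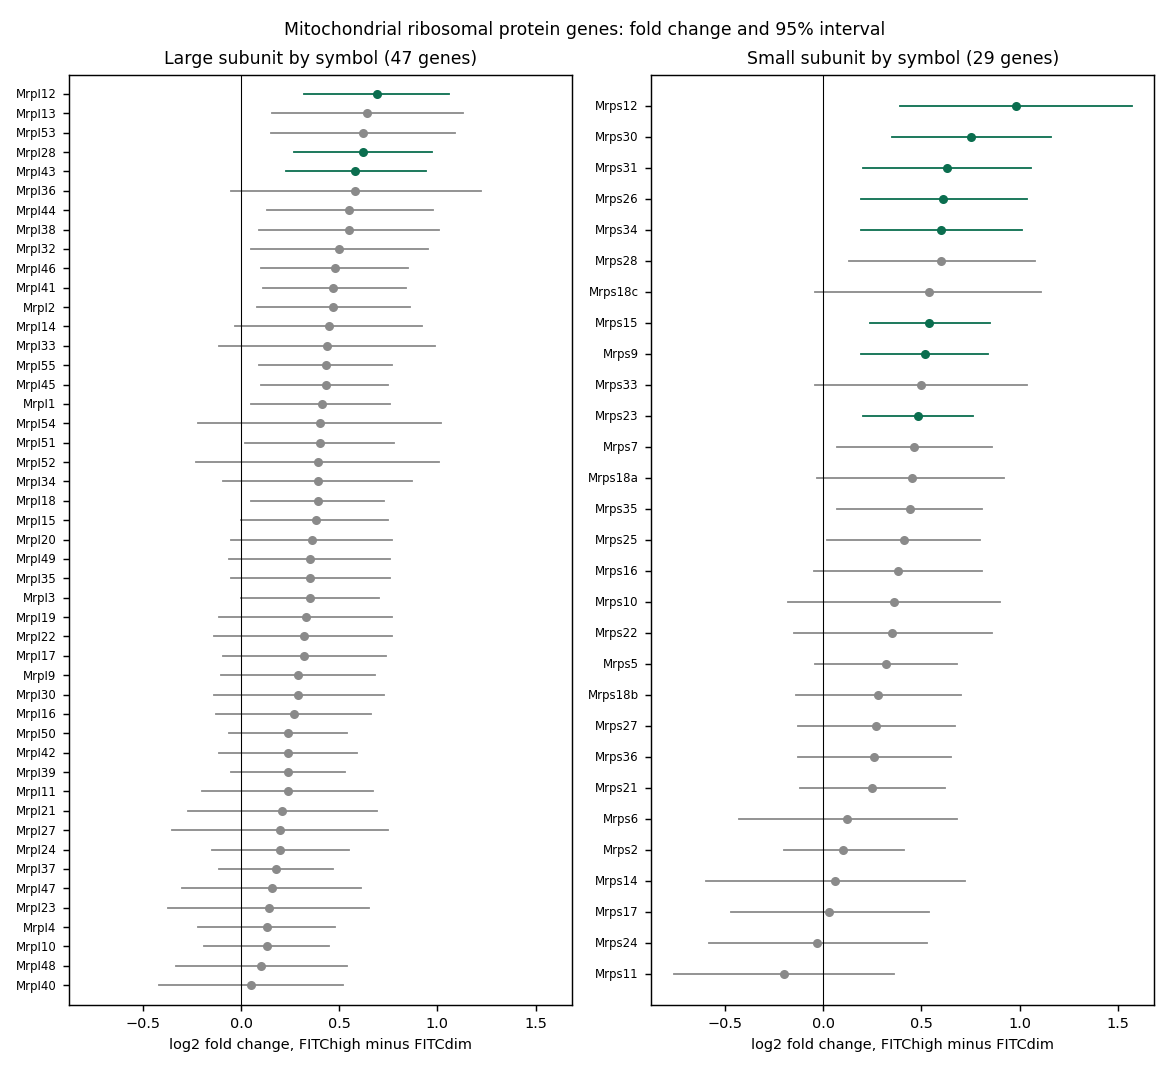
Log2 fold change (FITChigh minus FITCdim) of each mitochondrial ribosomal protein gene on the authors' scale, large and small subunit symbols apart, as points with 95% confidence intervals, with genes past the test marked. Values run from -0.20 to 0.98, and 3 large and 8 small subunit genes passed. At a common total for every library 0 passed, beside 41 of all 12907 genes tested that were higher.

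Among the 47 large subunit genes 3 rose (6.38%, against 2.51% of all genes tested), 44 did not pass and 0 fell. The median log2 fold change was 0.36 (range 0.05 to 0.69). At an unadjusted p under 0.05 limma-trend gave 16 higher and 0 lower, against 8.72% and 19% of all genes tested. The largest rise was that of Mrpl12, the stalk protein that helps recruit translation factors to the ribosome and is also known to bind the mitochondrial RNA polymerase. Mrpl12 (mm10 chr11:120484613-120489065, plus strand) had 527, 539 and 355 adjusted read counts in the FITChigh libraries, given in replicate order here and for every gene that follows, against 249, 353 and 272 in FITCdim. The lowest FITChigh library was just above the highest FITCdim library. Its means were 474 ± 103 and 291 ± 54.5 (SD, n = 3 each), a log2 fold change of 0.69 (SE 0.18, 95% interval 0.32 to 1.06, limma adjusted p = 0.012), resting on 1351 and 937 reads. The exons of Mrpl12 overlap those of the noncoding RNA gene Gm16755 by 200 bases on the opposite strand, which leaves its reads uncertain.

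Mrpl28, a counterpart of bacterial ribosomal protein L28 (chr17:26123500-26126613, plus strand), had 251, 266 and 198 adjusted read counts in the FITChigh libraries and 172, 164 and 128 in the FITCdim libraries. The gates did not overlap, and replicate 3 was the lowest in both. Its log2 fold change was 0.62 (SE 0.16, limma adjusted p = 0.016), from means of 238 ± 36.1 and 155 ± 23.6. Mrpl43, a protein of the mitochondrial lineage (chr19:45004829-45006442, minus strand), showed the tightest FITChigh libraries of these 3 genes, at 106, 114 and 116 against 74.6, 81.4 and 67.5. No FITCdim library reached the lowest FITChigh library. Its log2 fold change was 0.58 (SE 0.17, limma adjusted p = 0.024). The exons of Mrpl43 overlap those of Twnk, the mitochondrial DNA helicase, by 507 bases on the opposite strand. The sources used here do not say whether counting used the strand, so reads of both genes may be mixed. The table lists Twnk as Peo1, with a log2 fold change of 0.12 (limma adjusted p = 0.69).

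Of the 29 small subunit genes 8 rose (27.6%, against 2.51% of all genes tested), 21 did not pass and 0 fell. The median log2 fold change was 0.41 (range -0.20 to 0.98). At an unadjusted p under 0.05 limma-trend gave 12 higher and 0 lower, again against 8.72% and 19%. Whether the share of genes that rose differs between the subunits was not tested. The symbols also mislead in part: the proteins of Mrps18a and Mrps30 sit in the large subunit, and Mrps36 is now known as a component of the 2-oxoglutarate dehydrogenase complex. Placed by protein, 4 of 49 large subunit genes and 7 of 26 small subunit genes rose, with median log2 fold changes of 0.38 and 0.39.

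The member with the largest log2 fold change was Mrps12, counterpart of bacterial S12, the protein of the decoding centre where streptomycin resistance arises. Mrps12 (chr7:28739641-28741820, minus strand) had 126, 118 and 79.5 adjusted read counts in the FITChigh libraries and 37.1, 89.6 and 44.8 in the FITCdim libraries. FITCdim replicate 2 exceeded FITChigh replicate 3, so this gene alone among the 11 that rose had overlapping gates. Its means were 108 ± 24.8 and 57.2 ± 28.4 (SD, n = 3 each), a log2 fold change of 0.98 (SE 0.28, 95% interval 0.39 to 1.57, limma adjusted p = 0.023), resting on 310 and 177 reads. Without FITCdim replicate 1, the lowest library, the log2 fold change was 0.73 and the limma adjusted p was 0.094. The limma adjusted p was also above 0.05 without FITChigh replicate 1 (0.11) or FITChigh replicate 2 (0.066).

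Mrps15 and Mrps9, counterparts of bacterial S15 and S9, rose with non-overlapping gates. Mrps15 (chr4:126046925-126055532, plus strand) was the most even within FITChigh, at 217, 220 and 224 adjusted read counts against 134, 153 and 166. The spread within FITChigh (SD 3.53) was small beside the difference between the means of 220 and 151. Its log2 fold change was 0.54 (SE 0.14, limma adjusted p = 0.016). Mrps9 (chr1:42851233-42905683, plus strand) had 246, 266 and 212 against 161, 192 and 153, a log2 fold change of 0.52 (SE 0.15, limma adjusted p = 0.028).

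Mrps23, Mrps26, Mrps31 and Mrps34 are small subunit proteins without a bacterial counterpart, and all 4 rose with non-overlapping gates. The most abundant in adjusted read counts was Mrps23 (chr11:88204388-88211507, plus strand), at 521, 540 and 455 against 339, 386 and 359, with a log2 fold change of 0.48 (SE 0.13, limma adjusted p = 0.018). Mrps31 (chr8:22411361-22429665, plus strand) read 131, 140 and 104 against 81.2, 103 and 61, and its lowest FITChigh library was barely above FITCdim replicate 2. The log2 fold change of Mrps31 was 0.63 (SE 0.20, limma adjusted p = 0.046). Mrps34 is needed for a stable small subunit. In Mrps34 (chr17:24895116-24897502, plus strand) the values were 122, 155 and 102 against 68.7, 95.9 and 83.2, a log2 fold change of 0.60 (SE 0.19, limma adjusted p = 0.044). Its exons overlap those of Mapk8ip3 by 1309 bases on the opposite strand, which leaves its reads uncertain. Mrps26 (chr2:130563742-130568695, plus strand) was the closest to the threshold, at 83.1, 75.2 and 62.4 against 41.2, 50.6 and 51.2, with a log2 fold change of 0.61 (SE 0.20, limma adjusted p = 0.0496).

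Mrps30, a large subunit protein despite its symbol, had the second largest log2 fold change. Mrps30 (chr13:118378381-118387252, minus strand) read 119, 178 and 118 adjusted counts in FITChigh and 78.7, 91.1 and 72.1 in FITCdim. Every FITChigh library lay well above the highest FITCdim library, and FITChigh replicate 2 stood highest. Its log2 fold change was 0.75 (SE 0.19, 95% interval 0.35 to 1.16, limma adjusted p = 0.012). Without FITChigh replicate 2 it was 0.56 (limma adjusted p = 0.063). An overlapping gene, B430218F22Rik, shares 623 exon bases with Mrps30 on the opposite strand.

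**Figure D2:**
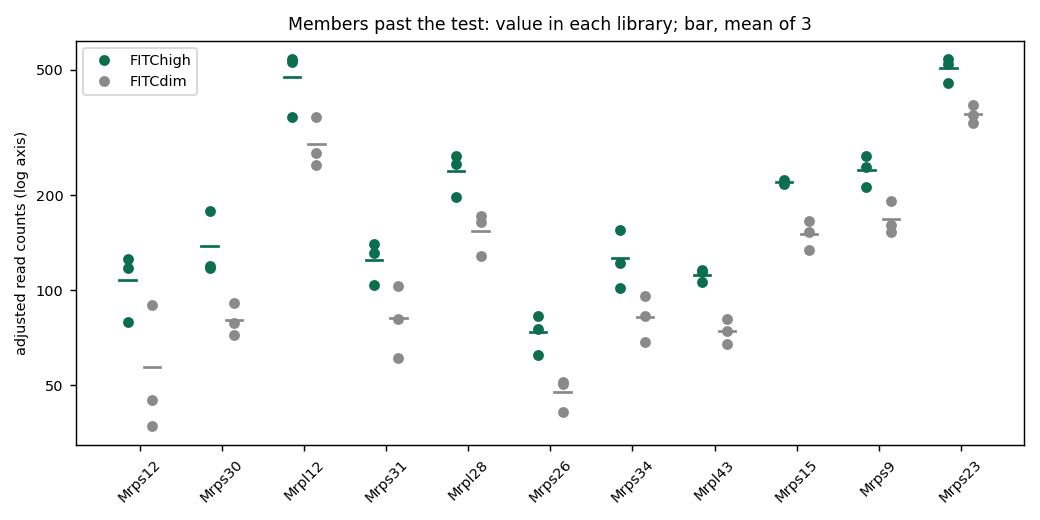
Adjusted read counts (log axis) of the 11 mitochondrial ribosomal protein genes that rose in FITChigh on the authors' scale, 1 point per library, FITChigh and FITCdim apart. The gates overlap in Mrps12 and in none of the other 10. None of the 11 passed at a common total for every library, where 41 of all 12907 genes tested were higher.

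Several members had fold changes as large without passing. Mrpl13, a counterpart of bacterial L13, read 151, 167 and 107 in FITChigh and 112, 104 and 60 in FITCdim, a log2 fold change of 0.64 (SE 0.23, limma adjusted p = 0.071), and the gates overlapped. Mrpl53 read 69.8, 62.8 and 48.8 against 43.6, 39.6 and 33.3 with no overlap, a log2 fold change of 0.62 (SE 0.22, limma adjusted p = 0.071). Its coding transcript has 695 bases, and it shares 695 exon bases with Gm42688 on the same strand, which leaves its reads uncertain. Mrpl36, which had the lowest single-library count of all members at 14 reads, had a log2 fold change of 0.58 (SE 0.30, limma adjusted p = 0.22). Among small subunit genes, Mrps28 read 122, 145 and 73.7 against 64.9, 80 and 70.7, so that FITChigh replicate 3 fell within the FITCdim range (log2 fold change 0.60, SE 0.22, limma adjusted p = 0.083). Mrps33 had a log2 fold change of 0.50 (SE 0.25, limma adjusted p = 0.21).

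The 3 proteins related to bacterial S18 did not pass the test. Mrps18c had the largest log2 fold change of the 3, 0.54 (SE 0.27, limma adjusted p = 0.21), from 47.8, 42.8 and 33 against 30.6, 35.4 and 19.8. Mrps18a read 163, 244 and 130 against 122, 168 and 98.7, a log2 fold change of 0.45 (SE 0.23, limma adjusted p = 0.22). Mrps18b read 67.8, 56.2 and 66.2 against 53.5, 55.5 and 46.9, a log2 fold change of 0.28 (SE 0.20, limma adjusted p = 0.39). The gates overlapped in Mrps18a and Mrps18c, and in Mrps18b they were separated by less than 1 adjusted read count. Differences among the 3 were not tested. Mrps36, the gene outside the ribosome, read 124, 108 and 119 against 76.2, 118 and 103 (log2 fold change 0.26, SE 0.18, limma adjusted p = 0.39).

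Negative values were few. On the authors' scale 2 of the 76 genes had a log2 fold change below 0, both counterparts of bacterial proteins in the small subunit, and both turned positive under quantile normalization. Mrps11 read 21.9, 34.3 and 27 in FITChigh and 29.4, 36.8 and 28.6 in FITCdim, a log2 fold change of -0.20 (SE 0.26, 95% interval -0.76 to 0.36, limma adjusted p = 0.69). Its exons overlap those of Mrpl46 by 173 bases on the opposite strand. Mrps24 read 51.6, 55.4 and 27.8 against 46.3, 39.9 and 45.6, with FITChigh replicate 3 the lowest of the 6 libraries (log2 fold change -0.03, SE 0.26, limma adjusted p = 0.96). Mrps14 was close to 0 at 0.06 (SE 0.31, limma adjusted p = 0.92) and was negative at a common total.

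In the class lists used here, 46 members were placed as having a bacterial counterpart and 29 in the mitochondrial lineage. Mrps18a and Mrps18b were placed in the mitochondrial lineage although they are related to bacterial S18, so the split is not strictly by descent. On the authors' scale 5 of the 46 rose (10.9%, median log2 fold change 0.35) and 6 of the 29 rose (20.7%, median 0.43). Of all genes tested 2.51% were higher. Non-overlapping gates with FITChigh above were found in 11 of the 46 (23.9%) and 16 of the 29 (55.2%), against 11.4% of all genes tested. Within the large subunit 2 of 30 genes with a bacterial counterpart and 2 of 19 of the mitochondrial lineage rose. In the small subunit these counts were 3 of 16 and 4 of 10. The difference between the classes was not tested, and genes of a class share the libraries and so are not independent.

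Levels between members can be compared only per length. Per kilobase of the principal coding transcript, Mrpl42, a large subunit protein of the mitochondrial lineage, was highest, at 1784 ± 318 adjusted read counts per kilobase in FITChigh against 1513 ± 298 in FITCdim (mean ± SD of 3 libraries). Its 3 FITChigh libraries read 1116, 1427 and 1022 adjusted counts before division by length and its FITCdim libraries 785, 1165 and 1073, so the gates overlapped (log2 fold change 0.24, SE 0.17, limma adjusted p = 0.37). Mrpl42 thus stood out by level and not by its difference between the gates. Over the mean of both gates the highest small subunit member was Mrps21, at 360 ± 62.2 and 304 ± 53.7 per kilobase (log2 fold change 0.25, SE 0.17, limma adjusted p = 0.40). Mrps23 had 379 ± 33.6 and 271 ± 17.8 per kilobase, above Mrps21 in FITChigh and below it in FITCdim, in both cases within the spread. Among the other genes that rose, Mrpl12 had 360 ± 78.4 and 221 ± 41.4 per kilobase. Mrps15 was at 235 ± 3.77 and 161 ± 17.4, Mrpl28 at 223 ± 33.8 and 145 ± 22.1, Mrps9 at 170 ± 19.4 and 119 ± 14.7, Mrps34 at 138 ± 28.9 and 90 ± 14.8, Mrps12 at 122 ± 28.1 and 64.8 ± 32.1, Mrps31 at 82.5 ± 12.5 and 53.9 ± 13.9, Mrpl43 at 80.1 ± 3.87 and 53.3 ± 4.96, Mrps30 at 41.8 ± 10.4 and 24.3 ± 2.91 and Mrps26 at 17.2 ± 2.44 and 11.1 ± 1.31. Mrpl28 and Mrps15 did not differ beyond their spread, whereas Mrpl43 lay below Mrps12 in FITChigh and within its spread in FITCdim. Mrpl17 was lowest of the large subunit symbols at 11.3 ± 1.84 and 9 ± 1.28 per kilobase, and Mrps14 lowest of the small over the mean of both gates, at 13.8 ± 3.49 and 13.9 ± 5.59, although Mrps26 was lower in FITCdim at 11.1 ± 1.31. These low places rest on the transcript chosen: coding transcripts of Mrpl17 are annotated from 380 to 7300 bases and those of Mrps14 from 787 to 2999 bases, and the longest one was the divisor.

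Summed over all 76 genes, the adjusted read counts were 11493, 13213 and 9909 in the FITChigh libraries against 8561, 10081 and 7993 in FITCdim. FITCdim replicate 2 was above FITChigh replicate 3, so the sums of the gates overlapped. The means were 11539 ± 1653 and 8878 ± 1080 (SD, n = 3 each). Large subunit genes summed to 7736, 8878 and 6662 against 5845, 6936 and 5414, and small subunit genes to 3757, 4336 and 3248 against 2716, 3145 and 2579. In the small subunit sum alone the gates did not overlap. The large subunit sum was 2.06, 2.05 and 2.05 times the small subunit sum in FITChigh and 2.15, 2.21 and 2.1 times in FITCdim, so by symbol this ratio was lower in every FITChigh library. With genes placed by protein it was 2.39, 2.44 and 2.4 against 2.48, 2.6 and 2.42, and the gates overlapped. With 3 libraries against 3, an exact permutation test cannot give a two-sided p below 0.1, and none was run on the sums.

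As a share of the library total, which does not depend on how libraries are scaled, the members made up 0.473%, 0.541% and 0.425% in FITChigh and 0.422%, 0.478% and 0.378% in FITCdim, with overlapping gates. Large subunit genes held 0.285% to 0.363% against 0.256% to 0.329%, and small subunit genes 0.139% to 0.177% against 0.122% to 0.149%. Libraries ranked alike across members. In FITChigh, replicate 2 was the highest library in 52 of the 76 genes and replicate 3 the lowest in 58. In FITCdim, replicate 2 was the highest in 51 and replicate 3 the lowest in 55. Replicate 2 had the fewest reads of its gate in both cases. Replicate 3 had the most reads in FITChigh (2931045) and lay between replicates 2 and 1 in FITCdim (1852505). In both gates the library titles carry the tag 1-2 for replicate 2 and 3-4 for replicate 3, and the meaning of these tags is not given. The parts of depth and of the tags in this order were not tested.

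**Figure D3:**
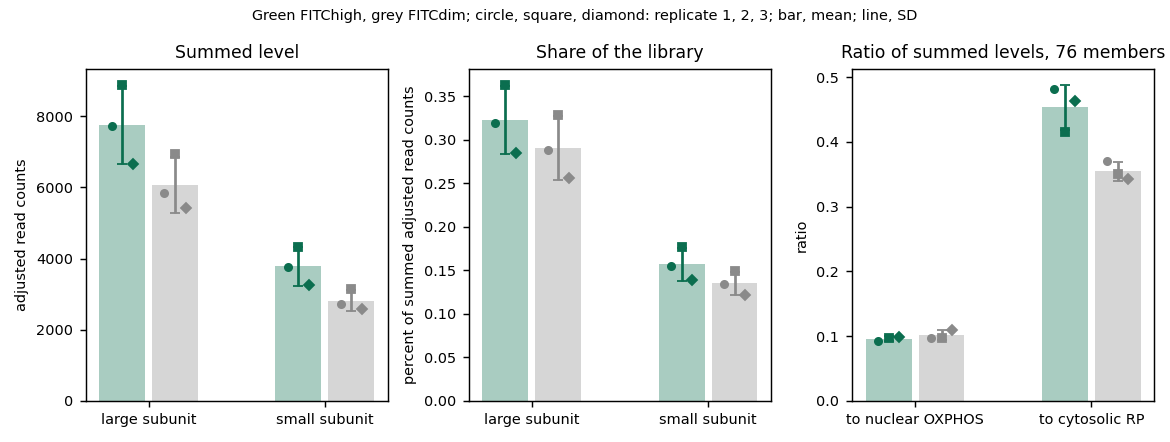
Summed adjusted read counts of large and small subunit genes in each of the 6 libraries on the authors' scale. The large subunit sums run from 6662 to 8878 in FITChigh and 5414 to 6936 in FITCdim and overlap, the small subunit sums run from 3248 to 4336 and 2579 to 3145 and do not, and as shares of the library total both subunits overlap.

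Against other sets of transcripts, the members' place between the gates varied. Their sum was 0.482, 0.415 and 0.463 times that of the cytosolic ribosomal proteins in FITChigh and 0.371, 0.35 and 0.343 times in FITCdim, with no overlap. In the table Rpl26 and Rpl30 were at 0 in every library and Rpl34 and Rps27 were too low to be tested. This ratio is therefore not the balance of whole ribosomes. Relative to the subunits of oxidative phosphorylation found by symbol the members' sum was 0.0923, 0.0972 and 0.0989 against 0.0967, 0.0977 and 0.11, with overlap. Relative to the 20 cardiomyocyte markers it was 0.0231, 0.0272 and 0.0217 against 0.0285, 0.0295 and 0.0226, also with overlap. Cox6a2, Cox7a1 and Cox8b are in both of these lists, so the marker sum is not free of mitochondrial transcripts. The rise of the 11 genes is thus stated on the authors' scale and not per unit of cardiomyocyte marker RNA. Scaled to those markers, the median log2 fold change was -0.17 for large and -0.12 for small subunit genes, and 8 genes of each were positive. On that scale 0 of 76 passed in either direction, beside 8 of all 12907 genes tested that were higher and 4855 that were lower. The median over all genes tested was -0.52.

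**Figure D4:**
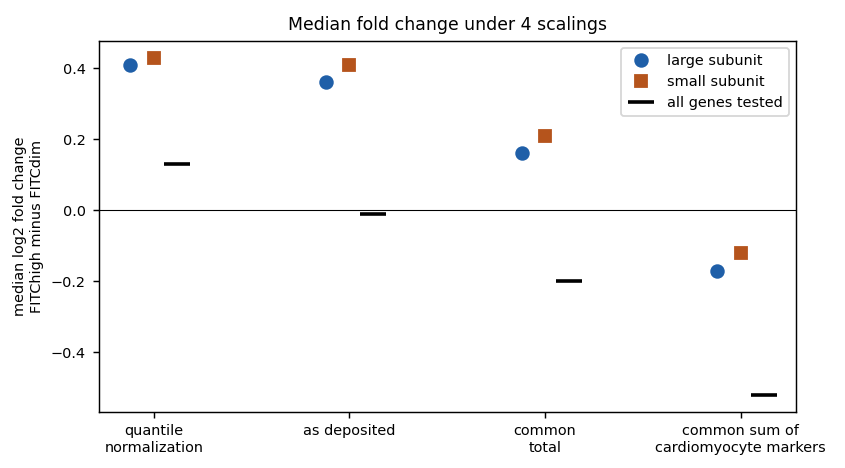
Log2 fold changes (FITChigh minus FITCdim) of large and small subunit genes and of all genes tested under each scaling of the libraries. The members' medians are 0.36 and 0.41 on the authors' scale, 0.16 and 0.21 at a common total and -0.17 and -0.12 relative to cardiomyocyte markers, and in each case lie above the median of all genes tested.

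The calls in the related lists of mitochondrial translation are read against the 2.51% of all genes tested that were higher (8.72% at an unadjusted p under 0.05). The 7 mitochondrial ribosomal proteins under other symbols had 0 higher and 0 lower by limma-trend (2 higher and 0 lower at an unadjusted p under 0.05), with a median log2 fold change of 0.39. The most abundant of them in adjusted read counts was Ptcd3, a small subunit protein with pentatricopeptide repeats, at 370, 325 and 353 in FITChigh and 273, 275 and 251 in FITCdim. These values did not overlap, yet the log2 fold change of 0.39 (SE 0.13) had a limma adjusted p of 0.054. Among 15 translation factors 0 passed in either direction by limma-trend (4 higher and 0 lower at an unadjusted p under 0.05), and the median was 0.30. Gfm1, elongation factor G1, which moves the ribosome along the messenger RNA, read 686, 599 and 662 against 517, 430 and 538 (log2 fold change 0.40, SE 0.13, limma adjusted p = 0.056).

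Of 23 tested genes for assembly of the mitochondrial ribosome and modification of its RNA, 1 rose and 0 fell, with a median of 0.35. It was Rbfa, a maturation factor of the small subunit RNA, at 170, 182 and 127 against 104, 122 and 96 (log2 fold change 0.56, SE 0.17, limma adjusted p = 0.038). Of 17 mitochondrial aminoacyl-tRNA synthetases, which charge the transfer RNAs, 1 rose and 0 fell, with a median of 0.26. That gene, the isoleucine enzyme Iars2, read 413, 371 and 356 against 237, 295 and 268 (log2 fold change 0.51, SE 0.14, limma adjusted p = 0.017). Among 9 tested genes for transcription and replication of mitochondrial DNA 1 rose and 0 fell, with a median of 0.16. Ssbp1, the single-stranded DNA binding protein, rose with 107, 129 and 91 against 56.4, 78.8 and 79.6 (log2 fold change 0.60, SE 0.20, limma adjusted p = 0.048), whereas Polg, the DNA polymerase, was at 0.16 (limma adjusted p = 0.53).

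Of the 78 tested subunits of oxidative phosphorylation 15 rose and 1 fell, with a median log2 fold change of 0.41. Among 79 tested cytosolic ribosomal proteins 2 rose and 2 fell and the median was -0.00. Of all genes tested 2.51% were higher and 13.5% lower. Like the members, these lists are given on the authors' scale, and their differences from the members were not tested.

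**Figure D5:**
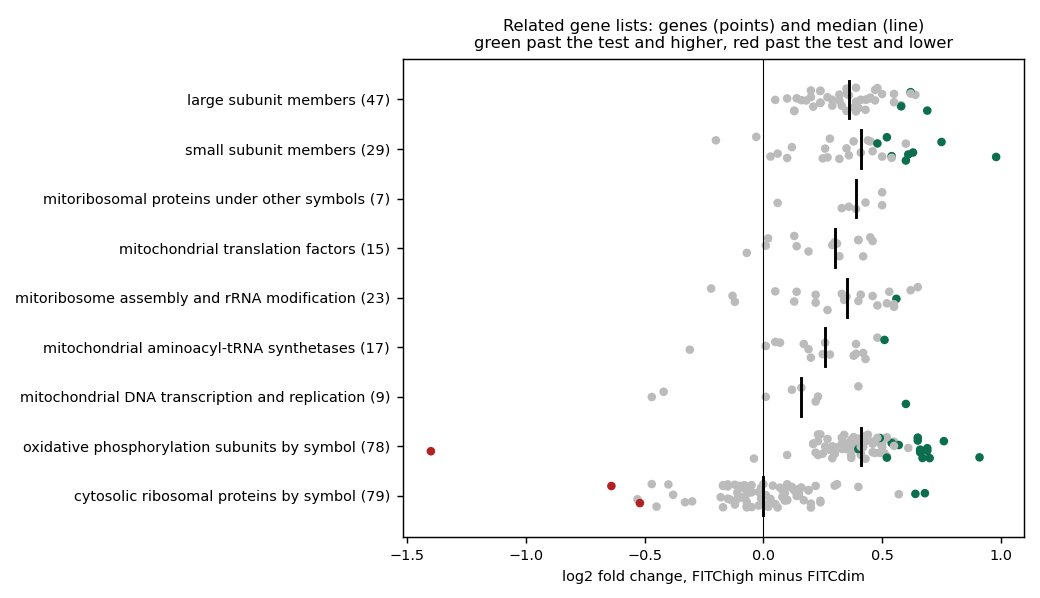
Log2 fold changes (FITChigh minus FITCdim, authors' scale) of the mitochondrial ribosomal proteins and of related gene lists, 1 point per gene with the median marked. Medians lie between 0.16 and 0.41 for the mitochondrial lists and at -0.00 for cytosolic ribosomal proteins, and the members' median is negative when libraries are scaled to cardiomyocyte markers.

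Many of these genes sit head to head with another gene. In the mm10 annotation of GENCODE, 18 of the 76 members (23.7%) have such a protein-coding partner on the opposite strand, against 10.7% of tested coding genes. The partner's start had to lie within 1000 bases upstream of the gene's start, or to overlap it by at most 100 bases. Of the 17 partners tested, 1 rose and 0 fell, with a median log2 fold change of 0.24. The partner that rose was Ndufs6, a complex I subunit, whose exons overlap those of Mrpl36 by 30 bases. Ndufs6 read 1361, 1659 and 1101 against 687, 949 and 785 (log2 fold change 0.76, SE 0.16, limma adjusted p = 0.0037). The start of Mrps12 lies 172 bases from that of Sars2, the mitochondrial seryl-tRNA synthetase, which had means of 36.1 and 31 and a log2 fold change of 0.25 (SE 0.26, limma adjusted p = 0.60). Exons of 32 members overlap another gene, 27 on the opposite strand and 8 on the same strand, and the values of these genes are uncertain to that extent.

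Promoter windows of RefSeq (GRCm38.p6, 250 bases before to 50 after the start) matched 67 of the 76 members. They were searched on both strands for GCGCA and GCGC with any 1 base between them, a core of the binding site of NRF1, for CCGGAAG, bound by GABPA and other ETS factors, and for AAGATGGC, a core of the YY1 site, none of which contains another. NRF1 and GABPA are known as regulators of nuclear genes for mitochondrial proteins. Shares were counted by gene, over genes with a window, and a gene held a motif if any of its windows did. The NRF1 letters were in 17.9% of the members against 11.3% of all genes tested. The GABPA letters were in 35.8% against 19.4% and the YY1 letters in 17.9% against 5.18%. At least 1 of the 3 was in 61.2% of the members, against 31.5% of all genes tested. Counted by single window instead, 14.7% of all windows held at least 1, which is not the same measure. Among the members with a window, 6 of the 10 that rose (60%) and 35 of the 57 that did not pass (61.4%) held at least 1. A match is a run of letters and not a bound site.

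The 150 bases before the start are shown for the 3 large subunit genes that rose and for Mrps12, the member with the largest log2 fold change. They set a stretch with an NRF1 match beside one with GABPA matches and others with no match in the bases shown. Each is written 5′ to 3′ on the gene's own strand, with matches in capitals. They lie at chr11:120484487-120484636 (Mrpl12, plus), chr19:45006443-45006592 (Mrpl43, minus), chr17:26123353-26123502 (Mrpl28, plus) and chr7:28741822-28741971 (Mrps12, minus, between the starts of Mrps12 and Sars2).
Mrpl12: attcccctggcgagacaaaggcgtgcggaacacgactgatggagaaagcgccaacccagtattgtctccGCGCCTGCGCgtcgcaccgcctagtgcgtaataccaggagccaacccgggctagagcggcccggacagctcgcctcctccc
Mrpl43: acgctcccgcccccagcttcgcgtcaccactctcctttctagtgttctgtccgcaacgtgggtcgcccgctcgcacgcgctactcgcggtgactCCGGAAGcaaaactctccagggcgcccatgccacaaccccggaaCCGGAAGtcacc
Mrpl28: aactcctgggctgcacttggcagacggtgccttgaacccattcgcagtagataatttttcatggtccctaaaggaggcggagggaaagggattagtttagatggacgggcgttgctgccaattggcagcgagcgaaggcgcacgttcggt
Mrps12: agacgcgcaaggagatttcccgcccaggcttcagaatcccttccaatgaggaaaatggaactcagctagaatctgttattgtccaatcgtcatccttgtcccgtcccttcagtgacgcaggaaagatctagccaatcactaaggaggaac
The Mrpl12 stretch holds 1 NRF1 match and the Mrpl43 stretch 2 GABPA matches. The Mrpl28 stretch has none of the 3, and the matches of the Mrps12 window lie outside the bases shown.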

How the data were processed

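Polyadenylated RNA of 3 FITChigh and 3 FITCdim libraries was prepared with a strand-specific kit and sequenced as paired 75-base reads, per the labels' protocols. STAR 2.5, edgeR and mm10 are what the authors list, per the submitters' processing notes. Which step each tool served, the annotation and whether counting was stranded: not given in the sources used here. The deposited signal values, 1 for each gene in each library, are reads the authors scaled to a shared library size and did not divide by length. Of 23410 gene lines 6 were garbled and left out. Inverting the adjustment (dispersion 0.0203) reproduced 100% of values from whole reads within 0.0001, and 1 read was worth 0.607 to 1.54 adjusted counts. These reads gave the depths and, as an alternative, limma-voom. Libraries of a gate differed by more than sampling noise (chi-square over its degrees of freedom 3.63 to 6.09).

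Genes reaching 1 in 3 or more libraries were tested as log2(value + 1), a scale that understates changes of low genes, by limma-trend (limma 3.58.1 under R 4.3.3, two-sided, all 6 libraries, no block, Benjamini-Hochberg at 0.05 over all genes). The design provided for this test if values were normalized. Fits were tested on simulated data. Lengths and positions come from GENCODE vM21 (the longest principal coding transcript). Members, lists and tests were chosen with earlier results of these data known, and the oxidative phosphorylation and cytosolic ribosomal lists were defined after the files were seen.

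Named were members past the test; per subunit, the highest and lowest level per length and the 3 largest changes in each direction that did not pass; Mrps12, Mrps18a, Mrps18b, Mrps18c, Mrps30, Mrps36 and Mrpl12; and, in each related list of mitochondrial translation and mitochondrial DNA, the most abundant gene and up to 3 past the test. Sars2, Twnk, Ndufs6, Tcf21, Cd36, Abcc9, Myh6, Cox6a2, Cox7a1 and Cox8b were chosen after their values were seen. Replicates are numbered in accession order. Alternatives were other pseudocounts, filters, scalings, variance models, limma-voom, a block and each library left out.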

Additional observations from a re-analysis of the deposited data

How the results depend on the processing

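Counts of genes higher in FITChigh (3 large, 8 small) fell to 0 and 0 without a mean-variance trend, at a common total and relative to cardiomyocyte markers. Higher genes among all 12907 tested also fell, from 324 to 69, 41 and 8 in that order. In the last 2 of these settings the scaling moved all genes, and the cause of the first was not tested. Leaving out 1 library gave 0 to 10 large and 1 to 11 small subunit genes, or in all 1, 2 and 21 without FITChigh replicates 1, 2 and 3 and 3, 15 and 5 without FITCdim replicates 1, 2 and 3. Over all genes tested, 67 to 341 were higher with 1 library left out. The other pseudocounts, filters, robust fit, quantile normalization and limma-voom gave 3 to 4 large and 6 to 8 small subunit genes. No member was lower under any alternative. With a replicate block on the title tag the counts were 17 and 12, beside 1064 of all 12907 genes tested that were higher, against 324 without the block. Same-tag libraries deviated together with correlations of 0.0711, 0.125 and 0.175, each library best with its own tag, a hint from the data and not the design. The small subunit median was 0.21 at a common total, and relative to cardiomyocyte markers the medians were -0.17 (large) and -0.12 (small). There log2 fold changes also turned negative for Mrpl17 (-0.21), Mrpl42 (-0.29), Mrps14 (-0.46), Mrps18a (-0.09), Mrps18b (-0.25), Mrps21 (-0.29), Mrps23 (-0.05), Mrps33 (-0.02), Mrps36 (-0.27) and Mrps9 (-0.02). Quantile normalization gave Mrps11 0.04 and Mrps24 0.15. Mrps14 was -0.14 at a common total and -0.01 by limma-voom. With 1 library left out, Mrps14 ran from -0.33 to 0.27 (negative without FITChigh replicate 2 or FITCdim replicate 3) and Mrps24 from -0.20 to 0.28 (at or above 0.00 with FITChigh replicate 3, FITCdim replicate 1 or FITCdim replicate 3 left out). Over 17 alternatives Mrps30 passed in 13 (adjusted p 0.00091 to 0.4), Mrps12 in 11 (0.00019 to 0.17) and Mrps26 in 6 (0.025 to 0.76). Depth limits single genes: Mrps12 rests on 310 and 177 reads per gate, and Mrpl36 on as few as 14 in a library.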
